A study of Mus musculus with 5 samples.

Results

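The 9 mast cell genes were followed through 5 libraries of YFP-positive oviductal stromal cells: Cpa3, Mcpt4, Tpsb2, Cma1, Tpsab1, Ms4a2, Fcer1a, Kit and Hdc. They are 9 of 23857 genes in the authors' table and were taken by symbol, selected on their TPM in control against Esr1 knockout libraries, in which several had been noted as lower. The comparison of the groups is therefore a description for these 9 genes and carries no test. All 9 were in the table, and all 9 passed the filter on low values (at least 1 TPM in at least 2 libraries). Ms4a2 was below 1 TPM in all 3 knockout libraries and passed through the controls alone.

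All 5 mice were young adult females that carried Pdgfra-Cre, a recombinase under the promoter of the mesenchymal gene Pdgfra, and the Rosa26-YFP reporter (R26Y), which the recombinase switches on. The 2 controls (mice 2 and 3) were labelled wild-type without a floxed Esr1, and the 3 experimental mice (1, 2 and 3) were Esr1(fl/fl), so that Esr1, the gene of estrogen receptor alpha, could be deleted in Pdgfra-Cre cells. Oviducts (fallopian tubes) were dissociated, YFP-positive cells were sorted, and bulk RNA was sequenced from 1 mouse per library with a low-input SMARTer kit. Levels are in TPM (transcripts of a gene per fixed total, corrected for transcript length), so they can be compared between genes.

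Mast cells are tissue-resident leukocytes whose granules are packed with serine proteases (chymases and tryptases), carboxypeptidase, histamine and the proteoglycan serglycin. Their growth depends on KIT, the receptor for stem cell factor, which stromal cells make. They are armed through the high-affinity IgE receptor, and crosslinking of the bound IgE releases the granules. Connective-tissue mast cells, the kind found around vessels and in smooth muscle, are marked by Cma1, Mcpt4, Tpsb2 and Cpa3, whereas KIT and histidine decarboxylase are also made by other cell types.

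The level of Esr1 did not follow the labels in every library, and whether the gene was deleted in the sorted cells was not tested. Esr1 had control levels of 83.3 and 77.6 TPM, compared with 28.9, 85.0 and 170 TPM in knockouts 1, 2 and 3, in that order, so that only the library labelled knockout mouse 1 lay below the controls, and directions below refer to the libraries as labelled. Relative to control mouse 2, depth estimated from the steps of low values was 66.5% in control mouse 3 and 48.3%, 82.8% and 67.2% in knockout mice 1, 2 and 3. These used values up to 0.2 TPM. With values up to 0.5 TPM the estimates of knockout mice 1 and 3 were doubled, so both are uncertain by a factor of 2. Stromal markers were abundant in every library, with summed levels of 8 genes between 11488 and 20834 TPM, and leukocyte and epithelial markers were present as well. Pdgfra, whose promoter drove the recombinase, overlapped between the groups (limma, log2 fold change 0.13, adjusted p 0.831). The 7 pan-leukocyte genes summed to 921 and 942 TPM in the controls and to 847, 507 and 247 TPM in the knockout libraries, and the 10 epithelial genes to 3028 and 3328 TPM and to 2156, 12058 and 13148 TPM. Transcripts of cells other than stroma were thus in the sorted fraction, in amounts that differed between libraries. Esr1 and the epithelial sum both rose from knockout mouse 1 to 2 to 3, and the part of epithelial cells in the Esr1 level was not tested.

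The granule proteases were lower in every knockout library, and the receptor kinase and the histamine enzyme were not. The 5 proteases together were at 319 and 376 TPM in the controls against 96.9, 74.2 and 60.0 TPM in knockout mice 1, 2 and 3, which is 27.9%, 21.3% and 17.3% of the control mean. The alpha and beta chains of the IgE receptor, Fcer1a and Ms4a2, were under 10 TPM in every library and lowest in knockout mouse 3. Kit and Hdc were below both controls in knockout mouse 1 and above both controls in knockout mice 2 and 3. In bulk RNA, fewer cells of a type and less RNA per cell cannot be told apart.

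**Figure D1:**
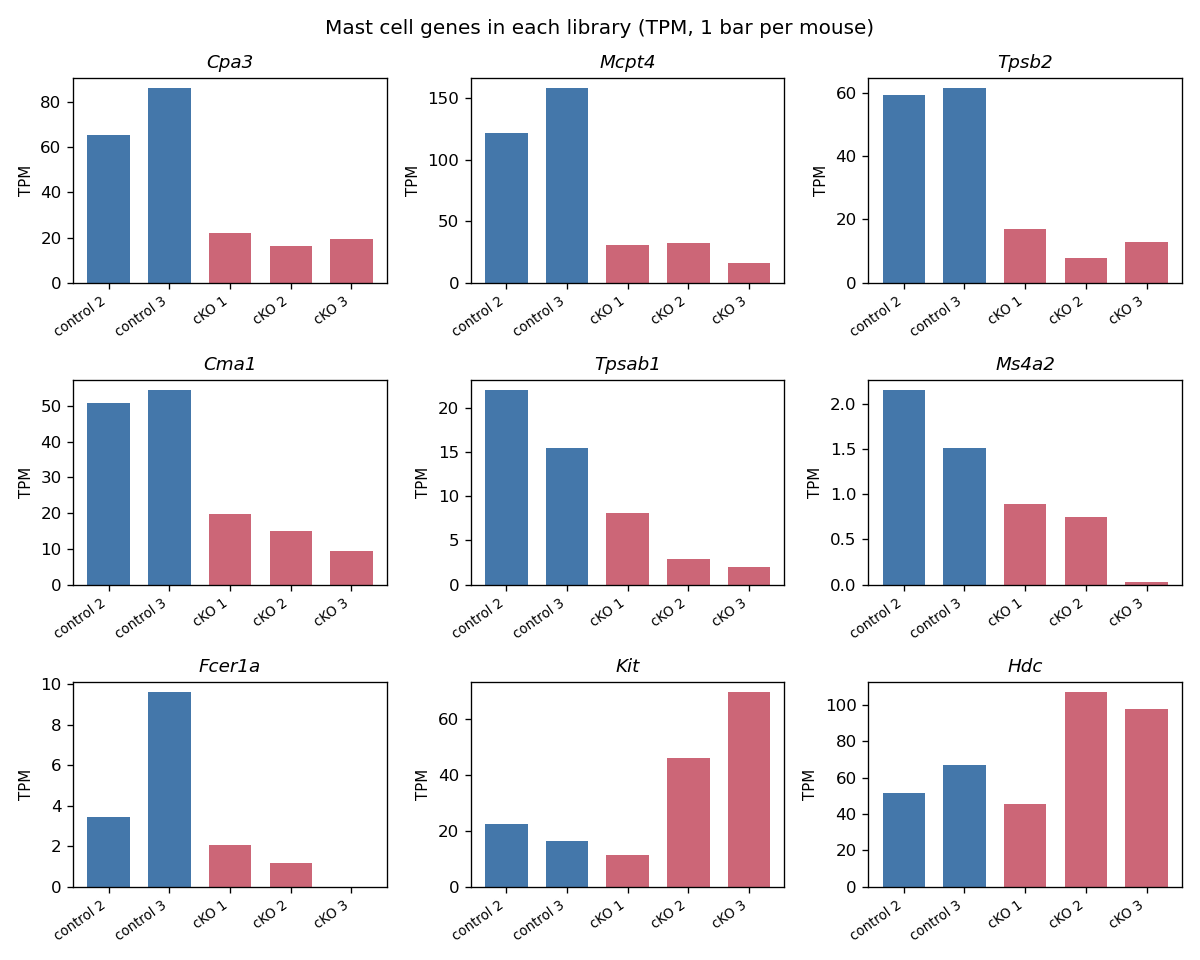
TPM (vertical axis, linear from 0) of each mast cell gene in each library (horizontal axis), 1 bar per mouse, controls in blue and libraries labelled Esr1 knockout (cKO) in red. The 7 genes from Cpa3 to Fcer1a are lower in all 3 knockout libraries than in either control, whereas Kit and Hdc exceed the controls in knockout mice 2 and 3 and lie below them in mouse 1.

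Cpa3, carboxypeptidase A3, trims peptides in the granule and is held there on heparin. It came to 65.7 and 86.3 TPM in controls 2 and 3, while knockouts 1, 2 and 3 had 21.8, 16.4 and 19.3 TPM. All 3 knockout libraries lay below both controls. Controls averaged 76.0 ± 14.6 TPM (SD, n = 2), knockouts averaged 19.2 ± 2.72 TPM (SD, n = 3), and on log2(TPM + 1) they differed by -1.93 (the log2 fold change, standard error 0.20).

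Mcpt4, the chymase that is the mouse counterpart of the human enzyme in substrate preference, was the highest of the 9 in the controls, at 121 and 158 TPM. It was at 30.4, 32.1 and 16.4 TPM in knockout mice 1, 2 and 3. Mouse 3 stood lowest, at 11.7% of the control mean, against 21.7% and 23.0% in mice 1 and 2. Control libraries averaged 140 ± 25.99 TPM (SD, n = 2) and knockout libraries 26.3 ± 8.64 TPM (SD, n = 3), a log2 fold change of -2.41 (standard error 0.31). Cma1, a chymase-family protease of connective-tissue mast cells with elastase-like activity in mice, reached 50.8 and 54.4 TPM in the control libraries, whereas knockouts 1, 2 and 3 gave 19.6, 15.1 and 9.42 TPM. Its controls differed little, its knockout libraries spread over a wider range, and its log2 fold change was -1.82 (standard error 0.29).

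Tpsb2, a tryptase that is stored as a tetramer on heparin, measured 59.4 and 61.6 TPM in the control pair, compared with 17.02, 7.67 and 12.9 TPM in knockouts 1 to 3. Here mouse 2 and not mouse 3 was the lowest, and the log2 fold change was -2.25 (standard error 0.31). Tpsab1, its neighbour in the tryptase cluster, had control levels of 21.99 and 15.4 TPM, compared with 8.07, 2.91 and 1.96 TPM in knockouts 1, 2 and 3, in that order. The spread among its knockout libraries was wide, since mouse 1 kept 43.1% of the control mean and mouse 3 10.5%, and the log2 fold change was -2.04 (standard error 0.47). RefSeq lists Tpsab1 on the C57BL/6J reference as a transcribed pseudogene. The 2 tryptase transcripts were identical at 79.4% of 1013 aligned bases and shared no run of 50 bases with each other or another gene, while Cma1 and Mcpt4 were identical at 72.3% of 907. Of the runs of 50 bases in Mcpt4, 5.48% were also found in other genes such as Cma2, and of those in Cma1, 5.38% in other genes such as the predicted gene Gm48934, so that reads from these stretches cannot be assigned to 1 gene.

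The proportions among the proteases were less steady than their direction. Mcpt4 made up 38.0% and 42.1% of the summed protease level in the controls and 31.3%, 43.3% and 27.3% in knockout mice 1, 2 and 3, and Cpa3 made up 20.6% and 23.0% and then 22.5%, 22.1% and 32.2%. Knockout mouse 3, the lowest in summed protease level, thus had relatively more Cpa3 and less Mcpt4. The ratio of Mcpt4 to Cpa3 was 1.85 and 1.83 in the controls and 1.39, 1.96 and 0.846 in the knockout libraries, a wider spread than between the controls.

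The 4 protein-coding proteases and the tryptase pseudogene lie in 3 places in the genome (mm10, which is GRCm38, with gene spans from RefSeq). Cma1 (chr14:55941451-55944675) and Mcpt4 (chr14:56059744-56062310) share the chymase locus, Tpsab1 (chr17:25343245-25345562) and Tpsb2 (chr17:25366308-25368096) the tryptase cluster, and Cpa3 (chr3:20215616-20242209) stands alone. Promoters are shown for 3 proteases that were lower together and for Hdc, which was not, so that the upstream letters of both kinds can be compared. Each is the 250 bases before the transcript start given in RefSeq's promoter table on GRCm38.p6, 5′ to 3′ on the gene's minus strand, at chr3:20242182-20242431 for Cpa3, chr14:56062311-56062560 for Mcpt4, chr14:55944676-55944925 for Cma1 and chr2:126618679-126618928 for Hdc. For Hdc this start lies inside the gene span given with its values, so the stretch is upstream of an internal start. The stretch of Cpa3, read 5′ to 3′, ends just inside its span. Capitals mark the letters GATAA, the core that GATA factors bind, or TTATC where the match is on the other strand.
Cpa3 promoter: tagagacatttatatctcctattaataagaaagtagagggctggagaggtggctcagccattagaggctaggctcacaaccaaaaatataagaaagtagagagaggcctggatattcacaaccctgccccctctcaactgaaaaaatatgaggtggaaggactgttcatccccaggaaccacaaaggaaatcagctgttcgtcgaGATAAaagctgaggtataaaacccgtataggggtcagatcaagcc
Mcpt4 promoter: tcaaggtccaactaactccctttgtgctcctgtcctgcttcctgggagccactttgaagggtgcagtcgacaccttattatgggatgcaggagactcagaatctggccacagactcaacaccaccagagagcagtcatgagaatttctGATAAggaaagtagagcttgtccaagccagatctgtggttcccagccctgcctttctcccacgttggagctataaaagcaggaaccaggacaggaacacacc
Cma1 promoter: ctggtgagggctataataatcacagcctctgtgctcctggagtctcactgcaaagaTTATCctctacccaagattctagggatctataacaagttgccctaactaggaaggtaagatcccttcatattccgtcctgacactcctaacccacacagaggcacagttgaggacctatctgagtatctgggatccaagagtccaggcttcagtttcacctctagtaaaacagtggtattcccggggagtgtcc
Hdc promoter: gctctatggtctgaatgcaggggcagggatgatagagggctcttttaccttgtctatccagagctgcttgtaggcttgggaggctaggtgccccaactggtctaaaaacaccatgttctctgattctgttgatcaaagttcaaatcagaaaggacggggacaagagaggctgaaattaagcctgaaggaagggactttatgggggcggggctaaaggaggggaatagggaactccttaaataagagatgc

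RefSeq promoters were matched for 7 of the 9 genes, not for Tpsb2 and Tpsab1. GATAA on either strand was in the 250 bases of 5 of the 7 (Cpa3, Mcpt4, Cma1, Fcer1a and Ms4a2) and in 22.6% of all 32851 RefSeq promoters. CATGTG, the E-box of the type that MITF, a master regulator of mast cells, binds, was in 1 of the 7 (Fcer1a) and in 12.3% of all, and the motifs did not overlap there. In Cpa3 the GATAA match begins 45 bases upstream of the start, in Mcpt4 102 and in Cma1 194. Kit and Hdc held neither string in this window. These are matches of letters and are not measured binding.

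The IgE receptor is built from the alpha chain, which binds IgE, the beta chain, which amplifies the signal, and a gamma chain shared with other leukocyte receptors. Fcer1a, the alpha chain (chr1:173221269-173227232), was at 3.44 and 9.61 TPM in the controls, at 2.03 and 1.19 TPM in knockout mice 1 and 2, and listed at 0 in mouse 3. The gap within the control pair was wider than that between control mouse 2 and knockout mouse 1. After scaling for relative depth, its values in the 5 libraries, controls first, stood as 7 to 13 to 2 to 2 to 0, within 0.163% of whole numbers. These are the smallest whole numbers in that ratio, and the reads behind them may be multiples. The number of knockout mouse 1 would double with its other depth estimate. The log2 fold change was -1.87 (standard error 0.56).

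Ms4a2, the beta chain (chr19:11615517-11623790), came to 2.15 and 1.51 TPM in controls 2 and 3, while knockouts 1, 2 and 3 had 0.892, 0.744 and 0.0305 TPM. On the same scaling its values stood as 105 to 49 to 21 to 30 to 1, so that the value of mouse 3 equals a single step on this scale. The numbers of knockout mice 1 and 3 would double with their other depth estimates. The log2 fold change was -0.90 (standard error 0.37), which understates the change of a gene at this level because 1 is added to each TPM. Fcer1g, the gamma chain, which macrophages and other myeloid cells also make, was at 239 TPM in each control against 169, 148 and 68.8 TPM in knockout mice 1, 2 and 3. With an adjusted p of 0.341 in limma, its log2 fold change of -0.99 (standard error 0.37) stayed short of the threshold of 0.05.

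Kit (chr5:75574987-75656722), the receptor tyrosine kinase for stem cell factor, reached 22.5 and 16.3 TPM in the control libraries, whereas knockouts 1, 2 and 3 gave 11.5, 45.9 and 69.5 TPM. The groups overlapped, because mouse 1 was below both controls and mice 2 and 3 were above both, at 237% and 359% of the control mean. The log2 fold change of 0.78 was about as large as its standard error of 0.67. Hdc (chr2:126593659-126624025), histidine decarboxylase, makes histamine from histidine. It measured 51.4 and 66.7 TPM in the control pair, compared with 45.2, 107 and 97.8 TPM in knockouts 1 to 3, with the same order of mouse 1 below and mice 2 and 3 above the controls. Its log2 fold change was 0.41 (standard error 0.37).

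Ordered by the control mean, the levels ran from Mcpt4 (140 TPM) through Cpa3 (76.0), Tpsb2 (60.5), Hdc (59.0), Cma1 (52.6), Kit (19.4), Tpsab1 (18.7) and Fcer1a (6.53) to Ms4a2 (1.83). Among neighbours in this order, Hdc overlapped Tpsb2 and Cma1 over the 2 controls, and Kit overlapped Tpsab1. In the knockout libraries Hdc (83.4 ± 33.3 TPM, SD, n = 3) and Kit (42.3 ± 29.2 TPM, SD, n = 3) had the highest means, ahead of Mcpt4 (26.3 TPM) and Cpa3 (19.2 TPM). The place of Kit came from mice 2 and 3, since in mouse 1 it was below Mcpt4, Cpa3, Cma1 and Tpsb2, and its range overlapped those of Hdc, Mcpt4 and Cpa3.

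**Figure D2:**
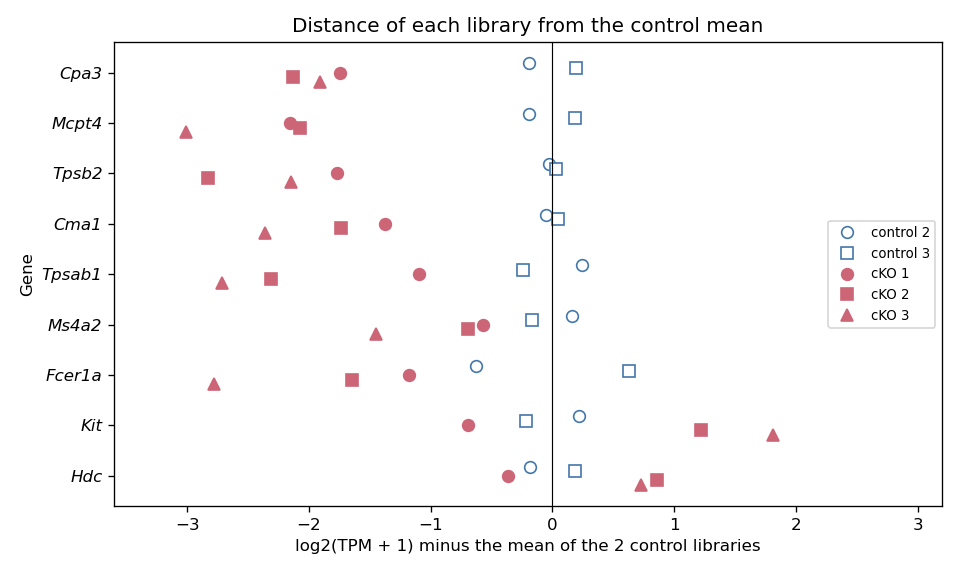
Horizontal axis: log2(TPM + 1) of each library minus the mean of the 2 controls, for each gene (vertical axis), with open blue symbols for controls and filled red symbols for the 3 knockout libraries. The proteases and IgE receptor chains lie to the left for all 3 knockout mice, from -0.57 (Ms4a2, mouse 1) to -3.01 (Mcpt4, mouse 3), and Kit and Hdc lie on both sides.

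Of the 9 genes, 7 were lower in all 3 knockout libraries than in both controls, where 21.9% of the 19292 tested genes were so, and 0 were higher in all 3, where 11.9% were. At an adjusted p under 0.05 in limma, 0.0156% of tested genes were lower and 0.0104% higher, and calls of the 9 are not given. A log2 fold change of -1 or less was reached by 6 of the 9 and by 5.41% of tested genes. These counts describe genes that the same contrast had singled out. The median log2 fold change of the 9 was -1.87, and that of all tested genes was -0.02. Without knockout mouse 1, Kit and Hdc were the 2 that were higher than both controls, which 34.5% of tested genes then were.

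Likeness of pattern was measured as the root mean square difference between centred log2(TPM + 1) values over the 5 libraries, among genes with a mean of at least 5 TPM. The 5 nearest to Cpa3, of 12607 candidates, were Il1rn (0.219), an interleukin-1 receptor antagonist, Adra1d (0.237), an adrenergic receptor, Mir155hg (0.267), the host transcript of a microRNA of immune cells, C5ar1 (0.283), a complement receptor, and Tpsb2 (0.286). Cma1 came at place 10, Mcpt4 at 71 and Tpsab1 at 183, whereas Hdc and Kit stood at 11327 and 12378, at distances of 1.26 and 1.63, above the median distance of 1.04. The 5 nearest to Kit were Ncald (0.106), Cdh4 (0.131), Barx2 (0.138), Sox3 (0.139) and Slc15a1 (0.142), and Hdc came at place 628 (0.544). Ncald, a neuronal calcium sensor, had control levels of 51.5 and 35.8 TPM, compared with 31.3, 113 and 175 TPM in knockouts 1, 2 and 3, in that order. Ms4a2 and Fcer1a had means below 5 TPM and were not ranked. The members had been chosen on the values of these same 5 libraries, so their likeness to Cpa3 or Kit is a description only.

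Leukocyte markers moved with the proteases in part. Ptprc, the common leukocyte phosphatase CD45, came to 54.6 and 50.8 TPM in controls 2 and 3, while knockouts 1, 2 and 3 had 46.6, 30.4 and 15.6 TPM, which is 88.3%, 57.7% and 29.6% of the control mean. All 7 pan-leukocyte genes were lower by log2 fold change (median -0.94), with 4 of the 7 below both controls and 2 (Cd52 and Coro1a) above both in mouse 1, and all 7 below both in mice 2 and 3. Of all genes in the table, 43.6% were below both controls and 16.9% above both in mouse 1, and 26.4% and 35.8% were below both in mice 2 and 3. In mouse 1 the summed pan-leukocyte level was 91.0% of the control mean while the summed protease level was 27.9%. In mouse 3 the values were 26.5% and 17.3%. The part of the leukocyte markers in the protease values was not tested.

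Per unit of Ptprc, Cpa3 was at 1.20 and 1.70 in the controls against 0.469, 0.539 and 1.24 in knockout mice 1, 2 and 3. Mouse 3 thus fell between the controls on this scale. Mcpt4, Tpsb2, Cma1, Tpsab1, Ms4a2 and Fcer1a were lower in every knockout library than in both controls on it, as they were in TPM. Mcpt4 was at 2.22 and 3.11 in the controls against 0.653, 1.06 and 1.05 in the knockout libraries. The share of all genes without overlap per unit of Ptprc was not computed, and the same contrast had chosen these genes. The mean log2 level of the 5 proteases minus that of the pan-leukocyte list was -0.69 and -0.61 in the controls and -2.12, -2.08 and -1.43 in knockout mice 1, 2 and 3. With the pan-leukocyte score as a covariate in limma, a choice made after the values were seen, the log2 fold changes were -1.85 for Cpa3, -2.08 for Tpsb2, -1.89 for Mcpt4, -1.25 for Cma1, -1.14 for Tpsab1, -0.38 for Ms4a2 and -0.92 for Fcer1a. Cpa3 and Tpsb2 thus moved by less than the spread between replicates, and the other 5 by more.

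Epithelial markers were high in the libraries in which Kit and Hdc were high. The summed level of the 10 epithelial genes, led by Ovgp1, the oviductal glycoprotein of secretory cells, was 67.8%, 379% and 414% of the control mean in knockout mice 1, 2 and 3. In mouse 1, 6 of the 10 were below both controls and 0 above, and in each of mice 2 and 3, 9 were above both. Of all genes, 43.6% were below both controls in mouse 1, so the count there was near that of all genes, and 38.4% and 33.1% were above both in mice 2 and 3. Per unit of Epcam, an epithelial adhesion molecule, Hdc was at 0.679 and 0.671 in the controls against 0.639, 0.704 and 0.449 in knockout mice 1, 2 and 3. Kit was at 0.297 and 0.164 in the controls against 0.162, 0.301 and 0.319 in the knockout libraries. The same ratio for Cpa3 was 0.868 and 0.869 in the controls and 0.308, 0.108 and 0.0887 in the knockout libraries. Once the epithelial score was a covariate, the log2 fold changes of Kit and Hdc were -0.15 and -0.11. Those of the proteases were -1.85 for Cpa3, -2.24 for Mcpt4, -1.97 for Tpsb2, -1.52 for Cma1 and -1.39 for Tpsab1. Fcer1a and Ms4a2 were at -1.49 and -0.64. With the pan-leukocyte score instead, Kit and Hdc were also below 0, at -0.62 and -0.18. Which cells made the Kit and Hdc transcripts was not tested.

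**Figure D3:**
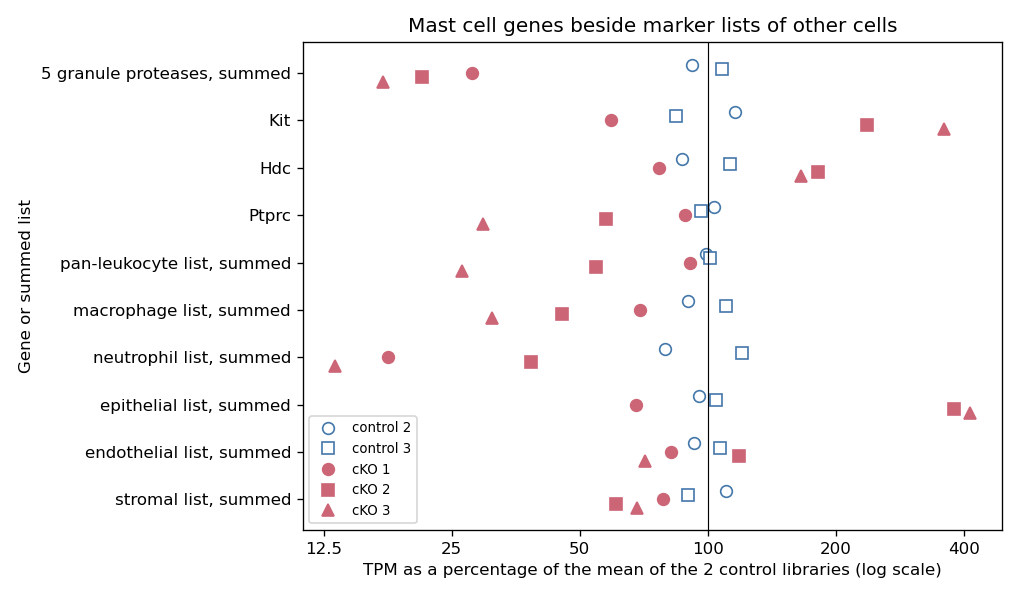
Horizontal axis: TPM as a percentage of the mean of the 2 controls, on a log scale, for the summed proteases, Kit, Hdc, Ptprc and summed marker lists (vertical axis), with open blue symbols for controls and filled red symbols for knockout libraries. In knockout mouse 1 (circle) the proteases are at 27.9% beside 91.0% for the pan-leukocyte list, and Kit and Hdc lie on the same side as the epithelial list in each knockout library.

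Other cells that make Kit were checked by their own markers. Ano1, the chloride channel of interstitial cells of Cajal, the pacemaker-type cells of smooth muscle, reached 118 and 98.0 TPM in the control libraries, whereas knockouts 1, 2 and 3 gave 130, 146 and 135 TPM (limma, log2 fold change 0.34, standard error 0.16, adjusted p 0.410). Of the 8 genes of that list 5 were higher and 3 lower, and their median was 0.12 on the log2 scale. The groups did not overlap for 3 as higher, Ano1 and Thbs4 among them, and for 2 as lower, beside 11.9% and 21.9% of all tested genes. The values of Thbs4 are given under other observations. Of 6 melanocyte genes, 4 were tested, and Tyr, which makes melanin, was below 1 TPM in every library. The summed level of all 6 was 21.7 and 22.8 TPM in the controls and 34.4, 7.23 and 5.98 TPM in knockout mice 1, 2 and 3. Basophils share Fcer1a, Ms4a2 and Hdc with mast cells, and their own protease Mcpt8 was at 1.41 and 2.98 TPM in the controls, listed at 0 in knockout mouse 1, and at 2.39 and 0.140 TPM in mice 2 and 3. Its level overlapped between the groups, whereas Prss34, another basophil protease, named after its values were seen, did not, at 2.35 and 4.03 TPM in controls against 0.462, 1.48 and 0.332 TPM (limma, log2 fold change -1.28, adjusted p 0.259). Itga2, an integrin of that list, did not overlap either (limma, log2 fold change -1.29, adjusted p 0.131).

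The 6 lists of companion genes held further genes of mast cell biology, 71 in all, of which 68 were tested. By log2 fold change 52 were lower and 16 higher, with a median of -0.52 beside -0.02 over all tested genes. In limma 0 passed an adjusted p under 0.05 in either direction, and at an unadjusted p under 0.05 there were 24 lower and 3 higher, beside 9.87% and 3.7% of all tested genes. The groups did not overlap for 34 of the 68 as lower and for 3 as higher, beside 21.9% and 11.9% of all tested genes. The companion lists were chosen with earlier results of these data known, so their counts are not independent of those results. By log2 fold change 52.2% of all tested genes were lower. These shares stand beside the counts of each list below as well. Genes with at least 1 TPM numbered 19061 and 19432 in controls 2 and 3, and 17148, 18190 and 15841 in knockouts 1, 2 and 3. Genes of low level can therefore have passed the filter through the controls alone, and for these the shares of all tested genes are a weaker comparison.

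Among 8 tested further granule proteases, all 8 were lower by log2 fold change (median -0.85), 3 of them without overlap, where 21.9% of tested genes were. The 8 include the basophil proteases Mcpt8 and Prss34, of which Prss34 did not overlap, and both also count among the companion genes above. Cma2, another gene of the chymase family, measured 4.41 and 3.17 TPM in the control pair, compared with 0.793, 0.926 and 0.475 TPM in knockouts 1 to 3 (limma, log2 fold change -1.47, standard error 0.29, adjusted p 0.160). It passed the filter through the controls alone. Reads from the stretches that Cma2 shares with the far more abundant Mcpt4 cannot be assigned to 1 gene, and their part in its level was not tested. Tpsg1, a membrane-anchored tryptase, had control levels of 3.62 and 4.21 TPM, compared with 2.10, 0.816 and 0.287 TPM in knockouts 1, 2 and 3, in that order (limma, log2 fold change -1.34, adjusted p 0.262). Gzmb, granzyme B, which lymphocytes also make, overlapped between the groups (limma, log2 fold change -0.59, adjusted p 0.459). The 3 were at low levels beside the 5 main proteases in the controls.

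Among 11 tested further receptors, 10 were lower and 1 higher (median -0.75), and 8 were lower without overlap, where 21.9% of tested genes were. Il1rl1, the receptor for interleukin-33 on mast cells and some lymphocytes, came to 7.11 and 8.19 TPM in controls 2 and 3, while knockouts 1, 2 and 3 had 3.97, 3.02 and 1.55 TPM (limma, log2 fold change -1.22, adjusted p 0.224). Mrgprb2, the receptor through which basic peptides and drugs trigger connective-tissue mast cells without IgE, reached 1.86 and 1.92 TPM in the control libraries, whereas knockouts 1, 2 and 3 gave 0.480, 0.385 and 0.475 TPM (limma, log2 fold change -0.997, adjusted p 0.229). The level of Mrgprb2 was steady within each group. It was below 1 TPM in all 3 knockout libraries, as was Mrgprb1 of the same list, so both passed the filter through the controls alone. Cd33, a sialic acid receptor of myeloid cells, and Cd63, a granule membrane protein of many cells, were lower without overlap (limma, log2 fold changes -0.75 and -0.30, adjusted p 0.420 and 0.433).

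Of 15 genes of signalling downstream of the IgE receptor, 11 were lower and 4 higher (median -0.62), 8 lower and 1 higher without overlap. At an unadjusted p under 0.05 in limma 5 were lower and 1 higher, and 0 passed after adjustment. Lyn, the kinase that phosphorylates the receptor first, measured 66.7 and 72.7 TPM in the control pair, compared with 40.4, 69.1 and 73.4 TPM in knockouts 1 to 3, with overlap (limma, log2 fold change -0.24, adjusted p 0.692). Fyn, another kinase of that pathway, was at 87.9 and 63.3 TPM in controls against 45.0, 40.4 and 42.7 TPM, without overlap (limma, log2 fold change -0.79, adjusted p 0.198). Gab2, the adaptor on the Fyn branch, was higher in all 3, at 26.7 and 27.9 TPM against 33.6, 43.4 and 35.2 TPM (limma, log2 fold change 0.43, adjusted p 0.366). These genes are made by many cell types.

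The 9 transcription factors had a median of -0.04, with 5 lower and 4 higher, and 3 were lower without overlap. Mitf, named after its values were seen, was one of the 3, at 33.7 and 33.0 TPM in controls against 21.4, 16.4 and 15.3 TPM (limma, log2 fold change -0.89, standard error 0.20, adjusted p 0.192). Gata2, which mast cells need and which stromal and endothelial cells also express, had control levels of 44.0 and 49.98 TPM, compared with 56.7, 37.2 and 44.8 TPM in knockouts 1, 2 and 3, in that order, with overlap (limma, log2 fold change -0.04, adjusted p 0.934). Gata1, which is more restricted to blood lineages, came to 1.67 and 2.80 TPM in controls 2 and 3, while knockouts 1, 2 and 3 had 0.864, 1.59 and 0.765 TPM, the closest pair being control mouse 2 and knockout mouse 2 (limma, log2 fold change -0.64, adjusted p 0.421). Stat5a, which carries KIT and cytokine signals, and Lmo4, a LIM-domain cofactor, overlapped (limma, log2 fold changes 0.51 and 0.05, adjusted p 0.588 and 0.907).

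Of 13 genes of granule storage and mediator synthesis, 8 were lower and 5 higher (median -0.42). Srgn, serglycin, on which the proteases are stored and which other leukocytes and endothelium also make, reached 145 and 178 TPM in the control libraries, whereas knockouts 1, 2 and 3 gave 90.0, 76.1 and 38.6 TPM (limma, log2 fold change -1.31, standard error 0.35, adjusted p 0.222). Hpgds, the haematopoietic prostaglandin D synthase, followed the order of Kit and Hdc, at 34.8 and 21.3 TPM in the controls against 21.1, 121 and 189 TPM in knockout mice 1, 2 and 3 (limma, log2 fold change 1.502, standard error 0.84, adjusted p 0.453). Vamp8, a membrane fusion protein of granule release, overlapped (limma, log2 fold change 0.34, adjusted p 0.581). Slc18a2, the vesicular monoamine transporter that loads histamine, was singled out after its values were seen. It measured 3.48 and 4.81 TPM in the control pair, compared with 8.001, 39.2 and 23.1 TPM in knockouts 1 to 3 (limma, log2 fold change 2.01, standard error 0.58, adjusted p 0.241).

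Of 12 signals that support or attract mast cells, 10 were lower and 2 higher (median -0.42). Kitl, stem cell factor, the ligand of KIT, had control levels of 25.04 and 26.9 TPM, compared with 18.0, 26.8 and 31.5 TPM in knockouts 1, 2 and 3, in that order, with overlap (limma, log2 fold change -0.06, standard error 0.25, adjusted p 0.913). Il33, the alarmin that acts through Il1rl1, came to 38.0 and 29.2 TPM in controls 2 and 3, while knockouts 1, 2 and 3 had 169, 89.3 and 67.6 TPM. All 3 were above both controls, mouse 1 most, but limma gave an adjusted p of 0.197 for the log2 fold change of 1.57 (standard error 0.37). It passed without knockout mouse 1, at 1.20, and with the replicate block, which gives that same fold change. It also passed with library weights and with either covariate, and in no other setting. Leaving out knockout mouse 1, the block and the weights called 1022, 1165 and 260 genes higher, against 2 in the reported fit. The pan-leukocyte covariate was chosen after the values were seen. Cxcl12, a stromal chemokine, reached 117 and 141 TPM in the control libraries, whereas knockouts 1, 2 and 3 gave 304, 109 and 148 TPM, with overlap (limma, log2 fold change 0.40, adjusted p 0.648). Tgfb1, a growth factor that draws mast cells, was lower without overlap (limma, log2 fold change -0.39, adjusted p 0.345).

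**Figure D4:**
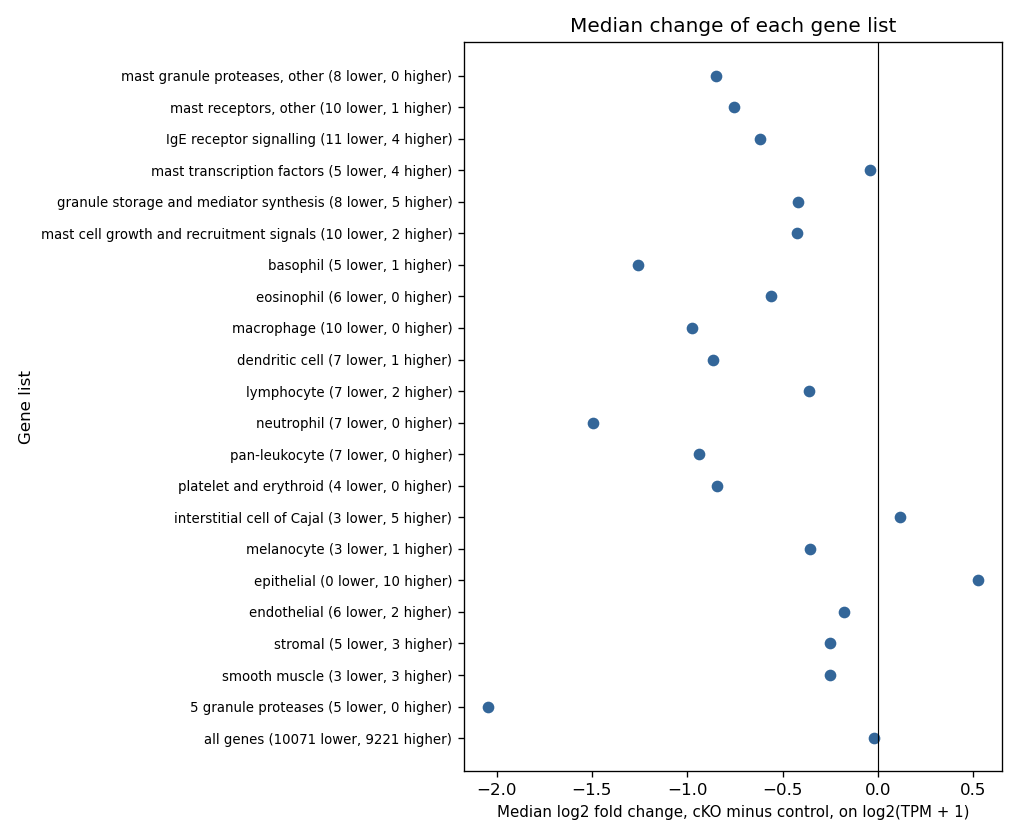
Median log2 fold change on log2(TPM + 1) (horizontal axis) of the tested genes of each list (vertical axis), with the number lower and higher in the libraries labelled knockout beside each name. Of the lists plotted, which leave out the 9 genes as a set (-1.87), the 5 granule proteases have the lowest median, -2.04, and the neutrophil list is next at -1.495, the epithelial list has the highest, 0.52, and all tested genes lie at -0.02.

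Across settings the proteases kept their direction, with log2 fold changes from -2.12 to -1.73 for Cpa3, -2.60 to -1.89 for Mcpt4, -2.54 to -1.96 for Tpsb2, -2.05 to -1.25 for Cma1 and -2.51 to -1.14 for Tpsab1 over 19 settings. The filters and eBayes options among these settings cannot change a fold change, and the replicate block repeats that without knockout mouse 1. Kit ranged from -0.62 to 1.51 and Hdc from -0.18 to 0.79, and both were below 0 under the 2 models with a covariate. Without knockout mouse 1 Kit was 1.51 and Hdc 0.79, and without mouse 3 Kit was 0.26. The 2 low receptor genes moved with the pseudocount: with 0.1 in place of 1, Ms4a2 was -1.99 and Fcer1a -3.17. Fcer1a was -2.50 without control mouse 2 and -1.24 without control mouse 3.

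**Figure D5:**
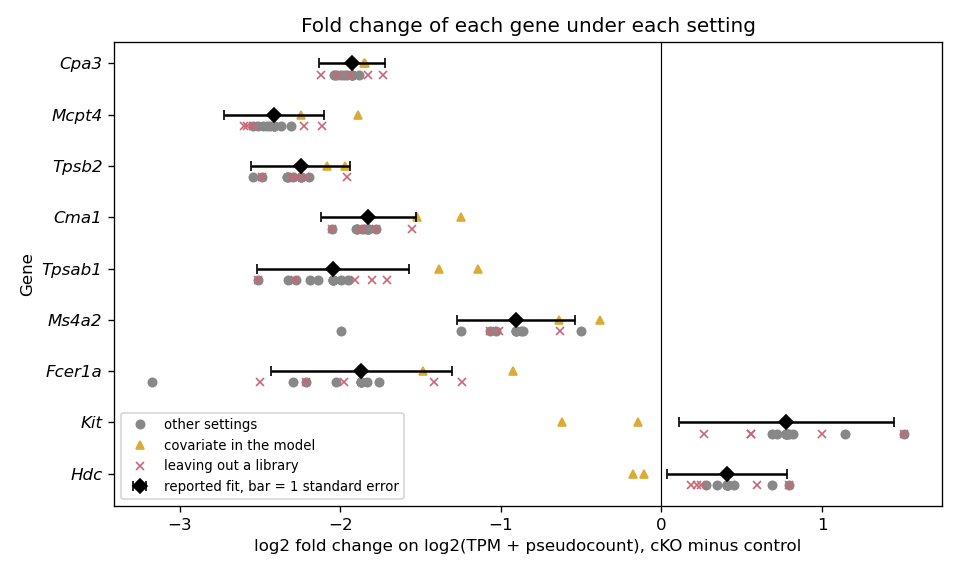
Log2 fold change, knockout minus control (horizontal axis), of each gene (vertical axis) in the reported fit (black diamond, bar of 1 standard error) and under each alternative: a library left out (cross), a covariate (triangle) or another setting (circle). The 5 proteases stay left of 0 under every alternative, and Kit and Hdc cross 0 with either covariate.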

How the data were processed

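Expression was measured by bulk RNA sequencing in 5 libraries, 1 mouse each, grouped as control (n = 2) or Esr1 knockout (n = 3) from the labels. Where p-values are given they measure the spread between these mice. The authors deposited TPM per gene. STAR is named in the title of the deposited table and mm10 in the submitters' processing notes. The gene counter, annotation and versions are not given in the sources used here. The deposited TPM sum to 1000000 in each library and keep no total depth. Relative depth was estimated from ratios between low values (at most 0.2 TPM, because a limit of 0.5 TPM gave values doubled for knockout mice 1 and 3), after a test on simulated data. Intervals are not given, because reads per gene are not known.

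The model was limma 3.58.1 (R 4.3.3) on log2(TPM + 1), with eBayes trend and genotype as its only term. Genes with at least 1 TPM in at least 2 libraries were tested (19292), two-sided, with Benjamini-Hochberg adjustment at 0.05. The fit was tested on simulated data. The members and lists were chosen with earlier results of these data known. Named besides the members are Esr1, Pdgfra, Ptprc and a fixed set (Kitl, Fcer1g, Il1rl1, Gata2, Gata1, Mrgprb2, Srgn, Mcpt8 and Ano1). Further names are, of each companion list, any gene past the threshold and otherwise the 3 highest in mean TPM. The 5 genes nearest to Cpa3 and to Kit are named too. Other names in the text were chosen after their values were seen. The alternatives (pseudocount, filter, scaling, eBayes options, library weights, covariates, replicate block, leaving out each library) are given below. Of the 20 companion lists, those not described elsewhere are given under other observations. RefSeq promoters and GENCODE M21 transcripts were read with Python 3.11.15 and biopython 1.88.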

Additional observations from a re-analysis of the deposited data

How the results depend on the processing

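In the reported limma fit 3 genes were lower and 2 higher at an adjusted p under 0.05. The lower and higher counts were both 0 after adding 0.1 in place of 1 (unadjusted calls under 0.05: 1518 and 715) or requiring a mean of 5 TPM (746 and 643). The lower count was 5 without Rpph1 and Rn45s. The higher count was 1 without a filter or with eBayes made robust, and 0 under quantile scaling (1139 unadjusted calls), scaling by the median of ratios (1289) or eBayes without trend (555). The counts were 396 and 260 with library weights, 24 and 31 with the epithelial score and 11 and 21 with the pan-leukocyte score, the last chosen after the values were seen. Leaving out 1 library gave from 0 to 502 lower and from 0 to 1022 higher genes, the high values without knockout mouse 1, and fits without a control assume that the lone control varies like the others. Calls of the 9 mast cell genes, in the reported fit or under these settings, are not given, because the same contrast had chosen these genes.

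The mouse number as a replicate block gave 693 lower and 1165 higher genes. It rests on mice 2 and 3 alone, whose deviations from the group means correlated at -0.06 and -0.07 across genes, so the libraries share only a number. The median of the 9 genes, -1.87, ran from -2.05 to -1.56 when 1 library was left out and was -1.14 with the pan-leukocyte score. Kit and Hdc changed sign with the epithelial score (-0.15 and -0.11) and the pan-leukocyte score (-0.62 and -0.18). The filters and eBayes options cannot change the fold change of a gene, and the replicate block repeats that of leaving out knockout mouse 1. Of 158 alternative values for single mast cell genes, which include these, 147 moved by less than the spread between replicates, 7 by more, and 4 changed sign. The cause was not tested. Depth limits Fcer1a and Ms4a2, whose lowest values are 0 and, on the depth scale used, a single step.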

Other observations

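Genes of other leukocytes were also low in these libraries. All 7 neutrophil genes were lower, with a median of -1.495 on the log2 scale. S100a8, a calcium-binding protein of neutrophil cytoplasm, measured 194 and 242 TPM in the control pair, compared with 31.6, 99.5 and 30.0 TPM in knockouts 1 to 3 (limma, log2 fold change -2.22, adjusted p 0.192). Its partner S100a9 was at 43.6 and 119 TPM in controls against 10.9, 21.7 and 3.57 TPM (limma, log2 fold change -2.77, adjusted p 0.204). In knockout mouse 1 the summed neutrophil level was 17.7% of the control mean, below that of the mast cell proteases, beside 91.0% for the pan-leukocyte list.

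The macrophage list had a median of -0.98 (10 of 10 lower), the basophil list -1.26 (5 of 6), the dendritic cell list -0.86 (7 of 8), the eosinophil list -0.56 (6 of 6), the lymphocyte list -0.36 (7 of 9), and the platelet and erythroid list -0.84 (4 of 4), in which the 4 globin genes were listed at 0. The melanocyte list had a median of -0.36 (3 of 4 lower). Endothelial markers had a median of -0.18 (6 of 8 lower), stromal markers -0.25 (5 of 8) and smooth muscle markers -0.25 (3 of 6). Of the 166 genes tested in the 20 companion lists, 0 passed an adjusted p under 0.05 in limma, and 51 lower and 4 higher had an unadjusted p under 0.05.

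Thbs4, a thrombospondin of the interstitial cell list, had control levels of 8.80 and 15.9 TPM, compared with 35.3, 78.4 and 61.5 TPM in knockouts 1, 2 and 3, in that order (limma, log2 fold change 2.13, standard error 0.38, adjusted p 0.133). Prg2, the major basic protein of eosinophil granules, came to 9.52 and 8.93 TPM in controls 2 and 3, while knockouts 1, 2 and 3 had 5.26, 0.797 and 0.140 TPM (limma, log2 fold change -2.13, adjusted p 0.278).

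Of the most abundant genes of the other lists, none passed an adjusted p under 0.05 in limma, and the log2 fold changes were as follows. For macrophages, Lyz2 was at -1.22, C1qa at -0.95 and C1qb at -0.999. For dendritic cells, the antigen presentation genes H2-Ab1, H2-Aa and Cd74 were at -1.02, -0.90 and -1.01, and all overlapped. For lymphocytes, the T cell receptor chains Cd3e and Cd3g were at 0.09 and 0.05 and overlapped, and the B cell receptor chain Cd79a was at -0.80. Cd3e was highest in knockout mouse 1, at 35.9 TPM beside 9.76 and 13.7 TPM in the controls. Retnlg, of neutrophils, was at -1.94, and of the pan-leukocyte genes Cd52, Laptm5 and Tyrobp were at -0.98, -0.94 and -1.23. Il6 and Cyp11a1, of the basophil list, overlapped at -1.31 and 0.58, as did Siglecf and Ear1, of the eosinophil list, at -0.27 and -0.69. The platelet genes Pf4, Ppbp and Itga2b were at -0.98, -1.15 and -0.66. Cd34, of the interstitial cell list, was at -0.84, and the melanocyte genes Dct, Pmel and Mlana were at 0.82, -0.55 and -1.87. The keratins Krt18 and Krt19 were at 0.92 and 0.23, the endothelial genes Pecam1, Cdh5 and Emcn at -0.29, -0.05 and -0.06, the matrix genes Col1a1, Col1a2 and Dcn at -0.96, -0.69 and -0.33, and the smooth muscle genes Acta2, Des and Tagln at 0.13, -0.54 and 0.04.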
